A study of Mus musculus with 6 samples.

Results

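Serpins are a superfamily of proteins named for their serine protease inhibitors, and mouse genes of the family are grouped into clades, lettered A to I, by sequence. The genes described here are 59 protein-coding genes, of 43346 in a table of read counts from mouse liver, whose symbol is Serpin followed by a clade letter from a to i, a number and, for copies, a further letter. A further 3 entries with such a symbol were left out as not protein-coding: Serpinb10, the pseudogene Serpina3h and a second entry named Serpina11. Clade A held 23 of the 59 genes, clade B 26, clades E, F and I 2 each, and clades C, D, G and H 1 each.

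The study measured total liver RNA by bulk sequencing in 6 libraries from mice on FFC diet, used as a dietary model of MASH, a fatty and inflamed liver disease. An AAV8 vector carried an shRNA, a hairpin RNA that directs the breakdown of a matching mRNA. In 3 libraries (numbered 2, 3 and 2600) the shRNA was directed at S100a11, which encodes a calcium-binding protein, and in 3 (28, 30 and 31) it was a scrambled control. Both groups therefore share the diet and the vector, and no group on another diet or without vector was analysed here. Strain, sex, age, length of diet, and the promoter that drives the shRNA are not stated. Nor is it stated that each library came from its own animal, so the p-values below measure the spread between these libraries, which may be partly technical.

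In the classical mechanism a protease cuts the serpin's exposed reactive centre loop, is trapped by a large change of the serpin's fold and is cleared with it, so the letters of that loop set which protease is caught. The liver is the main source of the serpins of plasma: alpha-1-antitrypsin (Serpina1), antichymotrypsin relatives (Serpina3), antithrombin (Serpinc1), heparin cofactor II (Serpind1), alpha-2-antiplasmin (Serpinf2) and the C1 inhibitor (Serping1). Other members have left inhibition behind, among them the hormone carriers Serpina6 and Serpina7 and the collagen chaperone Serpinh1. Clade B serpins stay mostly inside cells, where several protect leukocytes and epithelia from granule proteases.

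The Serpina1 copies are shown first, because 5 of them carry much of what follows and their reads are hard to tell apart. In mice the human gene SERPINA1 corresponds to several copies side by side. Serpina1b, Serpina1c, Serpina1d and Serpina1e were 96.3% to 96.7% identical over their aligned coding sequences. Serpina1a was 91.4% to 93.3% identical to each of them, with a base opposite a gap counted as a difference. Its annotated coding sequence was longer, at 1308 bases against 1239 in each of the others, so its values do not measure substitutions alone. The stretch below is 60 bases of coding sequence that cover the reactive centre loop, from GENCODE M21 (GRCm38/mm10), chromosome 12, minus strand, printed 5′ to 3′; capitals mark the columns where at least 1 of the 5 copies differs.
Serpina1a (chr12:103853757-103853816): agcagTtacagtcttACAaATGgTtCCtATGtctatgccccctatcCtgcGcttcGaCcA
Serpina1b (chr12:103728324-103728383): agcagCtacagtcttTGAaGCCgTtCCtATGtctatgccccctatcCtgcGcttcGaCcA
Serpina1c (chr12:103895094-103895153): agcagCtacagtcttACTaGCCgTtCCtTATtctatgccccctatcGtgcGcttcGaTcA
Serpina1d (chr12:103763762-103763821): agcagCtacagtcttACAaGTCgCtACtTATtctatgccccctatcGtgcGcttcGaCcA
Serpina1e (chr12:103947100-103947159): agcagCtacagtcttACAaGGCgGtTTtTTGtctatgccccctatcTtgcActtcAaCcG
In this window 18 of 60 columns (30.0%) varied, against 155 of 1308 (11.9%) over the whole coding alignment, where gaps opposite the longer Serpina1a also counted. The window was chosen as the gap-free 60 columns that varied most, so this contrast follows from the choice. The window lies within one exon, and a read from elsewhere in the transcript often matches several of the copies.

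Of the 59 serpins, 33 had enough counts to be tested, and 10 of these were called higher and 1 called lower with S100a11 shRNA, by label, than with the scrambled shRNA (edgeR quasi-likelihood F test, Benjamini-Hochberg adjusted p under 0.05 over 19352 genes). Of all tested genes 5.82% were called higher and 8.28% lower. The members called higher were Serpina1a, Serpina1b, Serpina1c, Serpina1d, Serpina1e, Serpina3k, Serpina3m, Serpina6, Serpina11 and Serpine2, and the one called lower was Serpinh1. The median log2 difference of the 33 serpins was 0.50, beside 0.04 over all tested genes. Groups did not overlap for 14 serpins that were higher and 5 that were lower, beside 16.5% and 18.1% of all tested genes. Calls were more often upward among abundant genes in general: of 1670 genes that averaged 100 CPM or more, 21.6% were called higher and 2.28% lower, with a median of 0.31, and of the 15 serpins among them 8 were called higher and 0 lower, with a median of 0.73. CPM is the usual count scaled to library size, here to the total after TMM, which sets the scale by the bulk of the genes. All of these are bulk RNA values, in which fewer cells of a type and less RNA per cell cannot be told apart.

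S100a11 itself, the target, was at 16.0, 3.55 and 3.41 CPM in the libraries labelled S100a11 shRNA 2, 3 and 2600, and at 15.9, 22.9 and 30.0 CPM in scrambled 28, 30 and 31. Library 2 was thus within the scrambled range, so its level goes against its label, and the log2 difference of -1.57 ± 0.56 (SE) did not pass the test (edgeR adjusted p = 0.0951). Without library 2 it was -2.75 (adjusted p = 0.000441), and 11 serpins were then called higher and 4 lower, beside 9.13% and 12% of all genes tested in that fit. Without library 3, 28, 30 or 31, respectively 4, 6, 2 and 4 serpins were called higher and 1 in each case lower, and without 2600 the counts were 8 and 2. Calls over all genes fell in these fits too, to 2.16%, 2.55%, 1.12% and 2.10% higher and 2.96%, 5.18%, 2.54% and 3.47% lower without 3, 28, 30 and 31, and to 4.07% and 6.29% without 2600. Library 2 was the lowest of its group in 9 of the 10 serpins called higher and the highest of its group in Serpinh1. Over the counts of all genes, too, library 2 was nearer to each scrambled library than to libraries 3 and 2600, by the chi-square per gene given with the processing. Libraries held 53517387 to 78091845 counts, with scaling factors between 0.822 and 0.932 under the S100a11 label and between 1.10 and 1.19 under the scrambled one. Scaled by library totals alone, the median of all tested genes shifted from 0.04 to -0.32, with 2.05% of them called higher and 20.5% lower. Of the 33 tested serpins 5 were then called higher and 7 lower, the latter near the share over all genes.

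**Figure D1:**
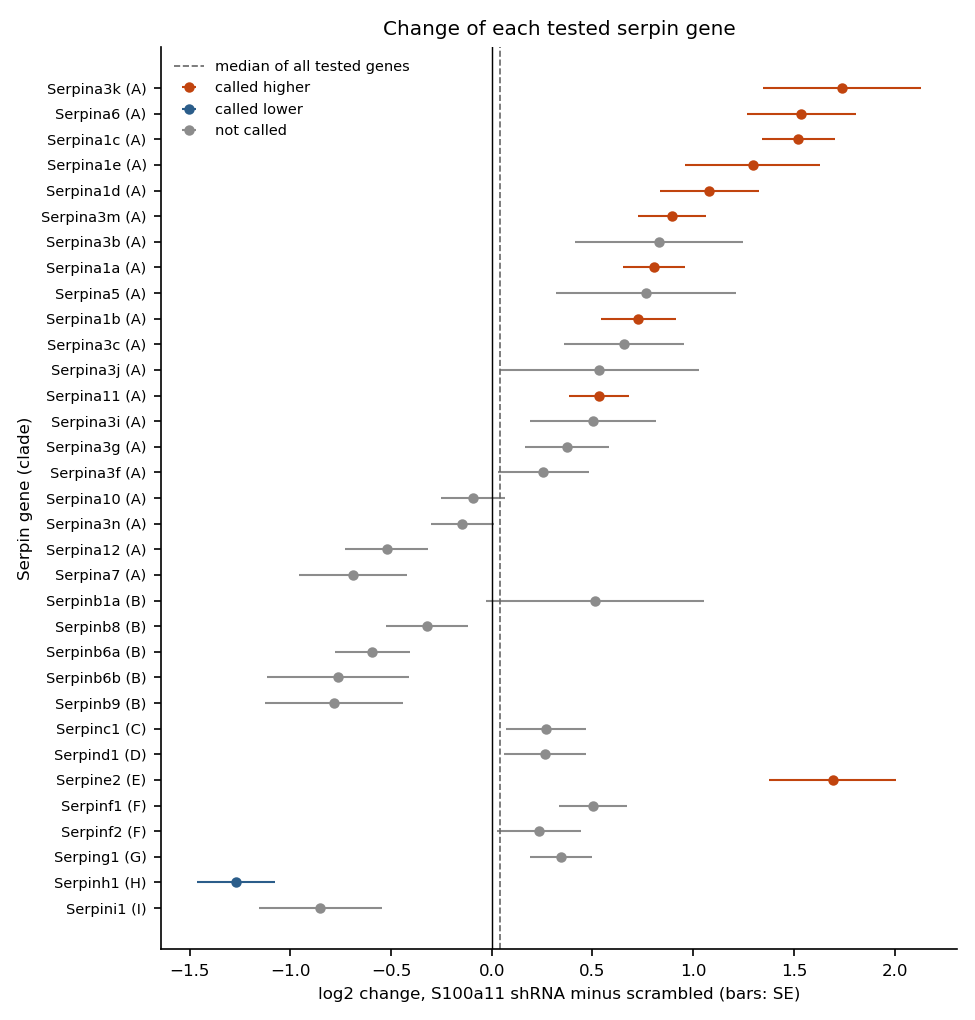
Log2 difference (libraries labelled S100a11 shRNA minus scrambled; bars: SE, n = 3 per group) of the 33 tested serpins, ordered by clade, with the median of all tested genes (0.04) as a dashed line. The 10 serpins called higher include 9 of clade A, and the 1 called lower is Serpinh1.

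Clade A, which includes many of the secreted liver serpins, held 9 of the 10 upward calls. Of its 20 tested genes 9 were called higher and 0 lower, with a median log2 difference of 0.69. Over all tested genes the shares were 5.82% and 8.28%, and over those averaging 100 CPM or more 21.6% and 2.28%, with a median of 0.31. The 9 include 5 Serpina1 and 2 Serpina3 copies, which can share reads and are not independent. By the sign of the difference alone, 16 were higher and 4 lower. Summed over the 23 genes, clade A made up 74.3% of the CPM of the 59 serpins. These 59 genes together took 1.15%, 1.76% and 1.52% of the raw counts of libraries 2, 3 and 2600 and 1.06%, 0.977% and 0.864% of those of scrambled 28, 30 and 31. In CPM their sum was 1.97-fold higher in the libraries labelled S100a11 shRNA than in the scrambled ones (means of 3).

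Serpina3k (contrapsin, an abundant plasma serpin of the antichymotrypsin group) had the highest level of any serpin, also per length, at a mean of 2238 CPM per kb over the 6 libraries. It was at 3881, 8745 and 8626 CPM in libraries 2, 3 and 2600 and at 2459, 2457 and 1453 CPM in scrambled 28, 30 and 31. The groups did not overlap, and libraries 3 and 2600 stood well above library 2. The mean was 7084 ± 2775 (SD, n = 3) against 2123 ± 580.5 CPM, a log2 difference of 1.74 ± 0.39 (SE; edgeR adjusted p = 0.0223). The call ended when any single library other than 2 was left out, with adjusted p of 0.0506 without 2600, 0.0758 without 3, 0.0516 without 28, 0.0672 without 30 and 0.0921 without 31. The direction and size held in each of these, from 1.53 to 1.86.

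Serpina3m, the neighbour of Serpina3k, was at 530.5, 710.5 and 619 CPM in libraries 2, 3 and 2600 and at 349.9, 353 and 297 CPM in scrambled 28, 30 and 31. Every library labelled S100a11 shRNA was above every scrambled library, and the log2 difference was 0.89 ± 0.17 (edgeR adjusted p = 0.0121). It was lost without library 3 (adjusted p = 0.0513), without scrambled 30 (0.0519) and without scrambled 31 (0.0603), and with library totals alone (log2 0.53, adjusted p = 0.0504). Serpina3n, the copy known as an acute phase gene of liver and of reactive astrocytes, differed from both of its neighbours in having overlapping groups. It was at 400.2, 366 and 472 CPM in the libraries labelled S100a11 shRNA and 445, 442 and 483 CPM in the scrambled ones, a log2 difference of -0.15 ± 0.16 (adjusted p = 0.578). With library totals alone Serpina3n was called lower, at -0.51 (adjusted p = 0.0327). Serpina3g, known from activated T cells and blood stem cells, was at 21.9, 13.8 and 23.7 CPM and at 15.01, 14.1 and 16.7 CPM, 0.37 ± 0.21 (adjusted p = 0.271), with overlapping groups.

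The other tested Serpina3 copies were low and none was called. Serpina3f averaged 6.42 CPM over the 6 libraries and Serpina3i 2.67 CPM, with log2 differences of 0.26 and 0.50. Serpina3b, Serpina3c and Serpina3j averaged 0.359, 0.556 and 0.568 CPM, with log2 differences of 0.83, 0.66 and 0.53. Serpina3a, with 1 to 5 counts per library, was not tested. In all, 2 of 9 tested Serpina3 copies were called, both upward, with a median of 0.53. Of all tested genes 5.82% were called higher, and of those averaging 100 CPM or more 21.6%.

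Because the copies can share reads, the 10 Serpina3 copies were also summed. The sum was 4846, 9849 and 9754 CPM in libraries 2, 3 and 2600 and 3277, 3275 and 2260 CPM in scrambled 28, 30 and 31, a log2 difference of 1.47 ± 0.36 (edgeR adjusted p = 0.0300). As with Serpina3k, the call ended without any one library other than 2, with adjusted p of 0.0620 (2600), 0.0928 (3), 0.0668 (28), 0.0852 (30) and 0.125 (31). Serpina3k made up 80.1%, 88.8% and 88.5% of the sum in the libraries labelled S100a11 shRNA and 75.0%, 75.0% and 64.3% in the scrambled ones, and Serpina3n 8.26%, 3.72% and 4.84% against 13.6%, 13.5% and 21.4%. Neither set of shares overlapped between groups, with an exact permutation p of 0.1 (two-sided), the smallest that 3 against 3 can give, and 0.2 after adjustment over 8 copies. Of all 50-base stretches in its transcripts, Serpina3k shared 14.0% with other genes, Serpina3m 19.1% and Serpina3n 6.90%. At 100 bases the shares were 4.85%, 6.09% and 0.200%. Most of what Serpina3k and Serpina3m shared was with each other, 257 stretches of 50 bases, and their exons overlap by 60 bases on the same strand, so some of their reads cannot be assigned to either.

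All 5 tested Serpina1 copies were called higher, with a median log2 difference of 1.08. Of genes averaging 100 CPM or more 21.6% were called higher, with a median of 0.31. These copies are the mouse counterparts of SERPINA1, which encodes alpha-1-antitrypsin, the main plasma inhibitor of neutrophil elastase. Their reactive centre loops differ, as printed above, so this target cannot be assumed for each copy, and inhibition was not tested. Serpina1c was at 728, 1008 and 937 CPM in libraries 2, 3 and 2600 and at 338, 280.3 and 312 CPM in scrambled 28, 30 and 31. Its lowest library labelled S100a11 shRNA was above 2 times its highest scrambled library, and the log2 difference was 1.52 ± 0.18 (edgeR adjusted p = 0.00351). This call held in all 15 alternatives, with values from 1.16 to 1.62.

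Serpina1d was at 991, 1538 and 1334 CPM in libraries 2, 3 and 2600 and at 783, 487 and 558 CPM in scrambled 28, 30 and 31, a log2 difference of 1.08 ± 0.25 (edgeR adjusted p = 0.0233). Serpina1e was at 259, 769 and 485 CPM and at 182, 214 and 219.8 CPM, 1.29 ± 0.33 (adjusted p = 0.0355). For Serpina1e library 2 lay just above the scrambled range and library 3 far above it. Serpina1a was at 493, 597 and 564 CPM and at 311, 290.2 and 344 CPM, 0.81 ± 0.15 (adjusted p = 0.0125). Serpina1b was at 1259, 1531 and 1261 CPM and at 912, 739.5 and 794 CPM, 0.73 ± 0.19 (adjusted p = 0.0340). Groups did not overlap for any of the 5 copies. Serpina1f, which is not known as a liver gene, had 0, 1 and 0 counts in the libraries labelled S100a11 shRNA and 5, 7 and 5 in the scrambled ones and was not tested.

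Apart from Serpina1c, the copies depended on single libraries. Serpina1a was lost without scrambled 30 (adjusted p = 0.0686). Serpina1b was lost without library 3 (0.106), 28 (0.0641), 30 (0.139) or 31 (0.125), and Serpina1d without 3 (0.0807), 30 (0.0981) or 31 (0.0888). Serpina1e was lost without any library but 2 (adjusted p of 0.0657 without 2600, 0.0947 without 3, 0.109 without 28, 0.113 without 30 and 0.0875 without 31). With library totals alone Serpina1a, Serpina1b and Serpina1e were not called, at log2 differences of 0.45, 0.37 and 0.92.

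Summed over all 6 Serpina1 copies, the level was 3731, 5443 and 4582 CPM in libraries 2, 3 and 2600 and 2526, 2011 and 2228 CPM in scrambled 28, 30 and 31. The means were 4585 ± 856 and 2255 ± 259 CPM (SD, n = 3), a 2.03-fold difference (log2 1.02 ± 0.25, edgeR adjusted p = 0.0315). The sum does not depend on how reads were divided among the 6 copies, and its groups did not overlap. Reads with several matches would still change the sum if they were dropped or counted more than once, which is not stated. The call of the sum was lost without library 3 (adjusted p = 0.0931), 28 (0.0624), 30 (0.119) or 31 (0.120), and with library totals alone (log2 0.66, adjusted p = 0.0567).

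Within the sum, Serpina1c took 19.5%, 18.5% and 20.5% in libraries 2, 3 and 2600 and 13.4%, 13.9% and 14.0% in scrambled 28, 30 and 31. Serpina1b took 33.8%, 28.1% and 27.5% against 36.1%, 36.8% and 35.7%. These shares did not overlap between groups, but their exact permutation p was 0.1, the smallest possible, and 0.2 after adjustment over 8 copies. The shares of Serpina1a, Serpina1d and Serpina1e overlapped. Serpina1c is also the copy that shares most sequence: 74.2% of its 50-base stretches and 58.5% of its 100-base stretches occur in another gene, most of them in Serpina1a (910 stretches of 50 bases). For Serpina1a the shares were 57.6% and 42.8%, for Serpina1d 50.9% and 29.3%, for Serpina1e 34.6% and 14.4%, and for Serpina1b 29.5% and 14.8%. All 5 also share stretches with Gm8893, a gene outside the family pattern. How the counting treated reads that match several copies is not stated, so the values of single copies are uncertain, and the sum may be affected too.

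**Figure D2:**
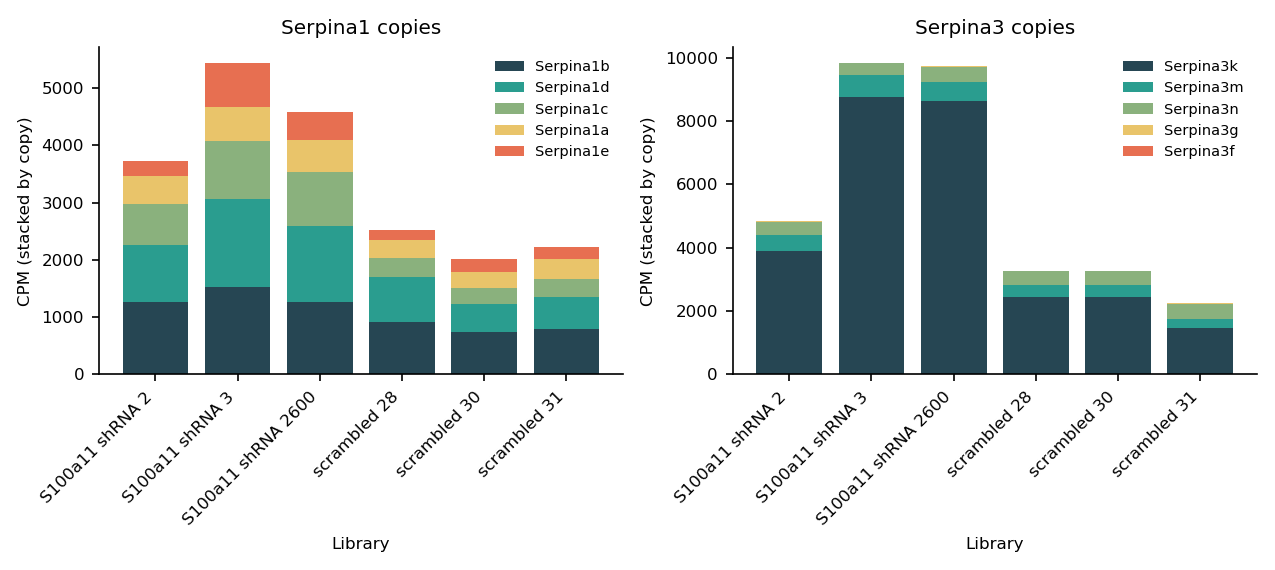
Level of the Serpina1 copies (left) and of the 5 most abundant Serpina3 copies (right) in each library, in CPM, stacked by copy. Both stacks are higher in all 3 libraries labelled S100a11 shRNA than in any scrambled library, and Serpina3k makes up 64.3% to 88.8% of the Serpina3 copies.

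The promoters of the 5 Serpina1 copies are shown because the copies were called in the same direction. RefSeq promoters (GRCm38.p6), from 250 bases before to 50 after the start of the transcript, were at hand for 51 of the 59 serpins. The entries for Serpina10, Serpina3k, Serpina3m, Serpina6, Serpina9, Serpinb13, Serpinb1a and Serping1 were missing. Whole promoters of the 5 copies were 63.3% to 91.4% identical, with bases opposite a gap counted as differences. Pairs with Serpina1e were at 63.3% to 69.3%, and the other pairs at 85.2% to 91.4%. The Serpina1e window is shifted against the others, as the positions below show, and its unmatched ends lower these values. The 80 bases below are on chromosome 12, minus strand, printed 5′ to 3′, with 2 stretches in capitals. The first is a CCAAT box, and the second is a CCAAT box on the other strand that overlaps by 1 base a GTTAAT, part of the binding site of the hepatocyte factor HNF1.
Serpina1a (chr12:103863602-103863681): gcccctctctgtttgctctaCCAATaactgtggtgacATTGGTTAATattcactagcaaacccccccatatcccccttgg
Serpina1b (chr12:103738177-103738256): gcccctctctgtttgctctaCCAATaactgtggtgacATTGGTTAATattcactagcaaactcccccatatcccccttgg
Serpina1c (chr12:103904939-103905018): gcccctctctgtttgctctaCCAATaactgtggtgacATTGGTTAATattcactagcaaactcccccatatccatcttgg
Serpina1d (chr12:103773611-103773690): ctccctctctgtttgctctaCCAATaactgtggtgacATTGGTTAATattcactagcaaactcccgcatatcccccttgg
Serpina1e (chr12:103956937-103957016): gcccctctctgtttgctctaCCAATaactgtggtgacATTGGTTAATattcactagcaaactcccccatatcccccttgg
Over these bases Serpina1b and Serpina1e differ from Serpina1a at 1 position each, Serpina1c at 3 and Serpina1d at 4. The GTTAAT begins 21, 26, 27 and 16 bases before the start site in Serpina1a, Serpina1b, Serpina1c and Serpina1d, and 78 bases before it in Serpina1e.

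Searched on both strands, GTTAAT was in 11 of the 51 serpin promoters and in 7.10% of all 32851 promoters of the same length. Of the 7 serpins called higher that have a promoter it was in 5, all of them Serpina1 copies, which are near-identical here and not independent. CCAAT was in 20 of 51 and in 37.4% of all promoters, and the AP-1 site TGANTCA in 10 of 51 and in 7.81%. The STAT5 site TTCNNNGAA was in 8 of 51 (8.30% of all), among them Serpina11, and the heat shock element GAANNTTC in 6 of 51 (7.86% of all). The TATA box TATAAA was in 15 of 51 (13.6% of all), the GC box GGGCGG in 8 of 51 (35.7% of all) and the SMAD site GTCTAGAC in 0 of 51 (0.213% of all). A match is a description of the letters and not of binding.

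The Serpina1 and Serpina3 copies lie in 1 cluster. Of the 59 serpins 22 are on chromosome 12 within 799.5 kb (mm10, from 103614786 to 104414329), including all of clade A but Serpina7, which is on X. Of the 19 tested there, 9 were called higher and 0 lower, beside 5.82% and 8.28% of all tested genes. Among genes averaging 100 CPM or more the shares were 21.6% and 2.28%. The calls were not contiguous. In order, Serpina10 at one end was not called, Serpina6, Serpina1b, Serpina1d, Serpina1a, Serpina1c, Serpina1e and Serpina11 were called (Serpina1f between them had too few counts), the tested genes from Serpina12 to Serpina3j were not, Serpina3k and Serpina3m were called, and Serpina3n at the other end was not.

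**Figure D3:**
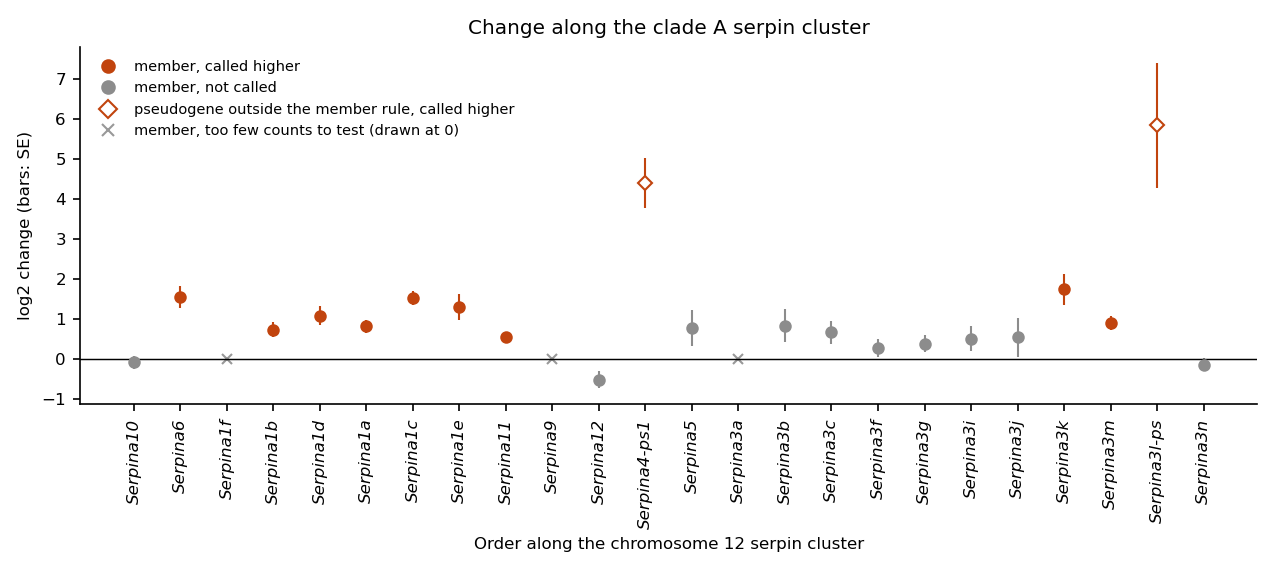
Log2 difference (libraries labelled S100a11 shRNA minus scrambled; bars: SE, n = 3 per group) of the 22 serpins of the chromosome 12 cluster in their order along it; crosses are untested members drawn at 0, and diamonds are 2 pseudogenes that are no members, Serpina4-ps1 and Serpina3l-ps. The 9 members called higher fall in 2 runs, from Serpina6 to Serpina11 and Serpina3k with Serpina3m.

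Among the clade A serpins that carry or release hormones, 1 of 2 members was called. Serpina6 (corticosteroid-binding globulin, the plasma carrier of glucocorticoids) was at 266, 322 and 197 CPM in libraries 2, 3 and 2600 and at 107, 57.0 and 106 CPM in scrambled 28, 30 and 31. The groups did not overlap, and the log2 difference was 1.54 ± 0.27 (2.90-fold, edgeR adjusted p = 0.00972), called in all 15 alternatives. No 50-base stretch of Serpina6 was shared with another gene. Serpina7 (thyroxine-binding globulin) was at 70.9, 83.2 and 36.1 CPM and at 106, 91.6 and 109 CPM, so that its groups did not overlap in the other direction, but its log2 difference of -0.69 ± 0.27 did not pass (adjusted p = 0.122). With library totals alone it was called lower, at -1.03 (adjusted p = 0.0317).

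Agt (angiotensinogen), a clade A serpin by descent whose symbol lies outside the pattern, was at 465, 622 and 642 CPM and at 465, 382 and 369 CPM, 0.51 ± 0.18 (edgeR adjusted p = 0.0999). Of 13 tested genes of hormone transport and the angiotensin pathway, Agt among them, 4 were called higher and 1 lower. Their median was 0.46, and 5.82% and 8.28% of all tested genes were called higher and lower. Of genes averaging 100 CPM or more the shares were 21.6% and 2.28%, with a median of 0.31. Dio1, which activates thyroid hormone, was higher by 1.03 on the log2 scale (adjusted p = 0.00828), and Rbp4, the retinol carrier, by 0.79 (0.0230). Ace, which cleaves angiotensin, fell by 0.69 (0.0355).

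The remaining clade A serpins were split. Serpina11, of no settled function, was at 34.7, 38.4 and 43.2 CPM in libraries 2, 3 and 2600 and at 29.5, 23.1 and 27.9 CPM in scrambled 28, 30 and 31. The log2 difference was 0.53 ± 0.15 (edgeR adjusted p = 0.0466), and it did not pass without any one library but 2 (adjusted p of 0.107 without 2600, 0.105 without 3, 0.0869 without 28, 0.199 without 30 and 0.114 without 31). In all, the call was lost in 9 of 15 alternatives, changes of scaling and of filter among them, with values down to 0.17 and adjusted p up to 0.396. Serpina11 shares 669 exonic bases with the second entry named Serpina11, which was at 0.42 ± 0.15 (adjusted p = 0.106), so their reads cannot be separated. Serpina12 (vaspin, known as an adipokine) was at 25.0, 24.6 and 14.5 CPM and at 32.7, 29.0 and 30.4 CPM, -0.52 ± 0.21 (adjusted p = 0.129), and was called lower without library 2 (-0.68, adjusted p = 0.0422) and with library totals alone (-0.87, 0.0278). Serpina10 (which inhibits activated factor X together with protein Z) was at 149, 123 and 128 CPM and at 130.0, 127 and 169 CPM, -0.09 ± 0.16 (adjusted p = 0.745), with overlapping groups. Serpina5, the protein C inhibitor, averaged 0.382 CPM. Serpina9, known from germinal centre B cells, had 23, 58 and 6 counts in libraries 2, 3 and 2600 and 5, 7 and 6 in the scrambled ones and was not tested.

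None of the 5 plasma serpins of clades C, D, F and G was called, and their log2 differences were 0.23 to 0.50. Serpinc1 (antithrombin, the inhibitor of thrombin and factor Xa) was at 1429.9, 1655 and 1544 CPM in libraries 2, 3 and 2600 and at 1515, 1119.9 and 1212 CPM in scrambled 28, 30 and 31, 0.27 ± 0.20 (edgeR adjusted p = 0.412). Serpind1 (heparin cofactor II) was at 318, 386 and 271 CPM and at 339, 215 and 258 CPM, 0.26 ± 0.21 (adjusted p = 0.434). Groups overlapped for both. Serpinf2 (alpha-2-antiplasmin) was at 414, 583 and 615 CPM and at 552, 403 and 416 CPM, 0.23 ± 0.21 (adjusted p = 0.493), also with overlap.

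Groups did not overlap for Serping1 and Serpinf1, both higher in the libraries labelled S100a11 shRNA. Serping1 (the C1 inhibitor) was at 532, 578 and 620.4 CPM and at 454, 415 and 494 CPM, 0.34 ± 0.15 (edgeR adjusted p = 0.172). Serpinf1 (pigment epithelium-derived factor, which inhibits no protease) was at 447, 516 and 542 CPM and at 414, 315 and 334 CPM, 0.50 ± 0.17 (adjusted p = 0.0796), and was called higher without library 2 (0.55, adjusted p = 0.0416) and with DESeq2 (0.50, 0.0347). With library totals alone Serpinc1, Serpind1, Serpinf2 and Serping1 changed sign, to -0.09, -0.08, -0.13 and -0.02.

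The proteases that these serpins meet in plasma were compared from a list. Of 16 circulating and complement proteases 4 were called higher and 2 lower, with a median log2 difference of 0.48. Of all tested genes 5.82% were called higher and 8.28% lower, and of those averaging 100 CPM or more 21.6% and 2.28%. Both proteases that were lower activate plasminogen and are inhibited by Serpine2. Plau (urokinase) was at 4.57, 3.84 and 3.93 CPM in libraries 2, 3 and 2600 and at 9.87, 7.99 and 10.4 CPM in scrambled 28, 30 and 31 (-1.20 ± 0.18, edgeR adjusted p = 0.00624). Plat (tissue plasminogen activator) was at 2.52, 1.53 and 0.296 CPM and at 7.34, 10.8 and 9.62 CPM (-2.63 ± 0.51, adjusted p = 0.0130). Masp2, a lectin pathway protease held by Serping1, was higher by 0.83 (adjusted p = 0.0294).

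Of clade E, Serpine2 (protease nexin 1, an inhibitor of thrombin and urokinase at cell surfaces) was at 14.0, 29.5 and 27.0 CPM in libraries 2, 3 and 2600 and at 5.74, 6.03 and 9.97 CPM in scrambled 28, 30 and 31. The groups did not overlap, and it rose by 1.69 ± 0.31 on the log2 scale (3.23-fold, edgeR adjusted p = 0.0116), a call lost only without scrambled 30 among the libraries left out (adjusted p = 0.0581). Serpine2 was the one serpin called higher outside clade A. Serpine3 had at most 4 counts in a library and was not tested. The median of 10 receptors and cofactors of serpins was 0.07. Of them 0 were called higher and 1 lower, beside 5.82% and 8.28% of all tested genes. The 1 was Plaur, the receptor that holds urokinase at the cell surface, at 3.08, 2.03 and 2.00 CPM and at 5.99, 5.48 and 5.67 CPM (-1.26 ± 0.22, adjusted p = 0.00971).

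Serpinh1 (HSP47, a chaperone of procollagen in the endoplasmic reticulum) was at 30.0, 20.8 and 23.9 CPM in libraries 2, 3 and 2600 and at 51.02, 55.5 and 73.6 CPM in scrambled 28, 30 and 31. The groups were well apart, and Serpinh1 fell by 1.27 ± 0.19 on the log2 scale (2.41-fold lower, edgeR adjusted p = 0.00616), called in all 15 alternatives with values from -1.62 to -1.10. Of 19 tested genes for procollagen chains and their folding 1 was called higher and 7 lower, beside 5.82% and 8.28% of all tested genes. Their median was -0.17. Fkbp10, a collagen chaperone, fell by 1.12 (adjusted p = 0.0115), and Plod2, which hydroxylates collagen lysines, fell by 1.19 (0.0237). Mia2, which helps export large cargo from the endoplasmic reticulum, was the one that rose, by 0.64 (0.0181). The enzymes P4hb, Ppib and P4ha1 were at 0.27, 0.05 and -0.01 and were not called.

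**Figure D4:**
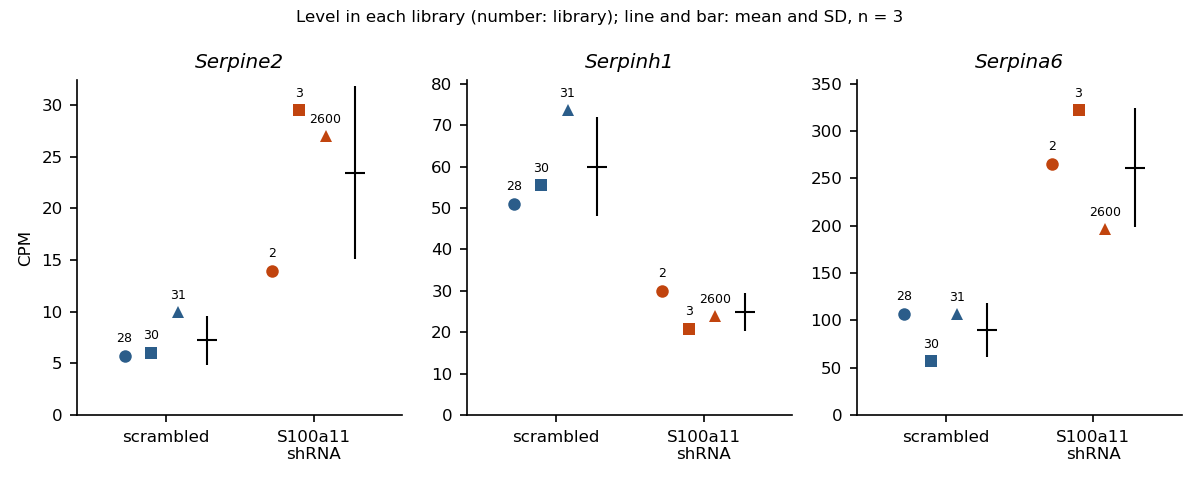
Level in CPM of Serpine2, Serpinh1 and Serpina6 in each library, with the mean and SD of each group (n = 3). Serpinh1 is lower and Serpine2 and Serpina6 are higher in every library labelled S100a11 shRNA than in any scrambled one, and for Serpine2 the gap lies between scrambled 31 at 9.97 CPM and library 2 at 14.0 CPM.

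Serpine2 and Serpinh1 are shown because they were called outside clade A, and neither window resembles those of the Serpina1 copies in the motifs searched. The 250 bases before the start are from RefSeq (GRCm38.p6), minus strand, printed 5′ to 3′ with each GC box GGGCGG in capitals.
Serpine2 (chr1:79858666-79858915): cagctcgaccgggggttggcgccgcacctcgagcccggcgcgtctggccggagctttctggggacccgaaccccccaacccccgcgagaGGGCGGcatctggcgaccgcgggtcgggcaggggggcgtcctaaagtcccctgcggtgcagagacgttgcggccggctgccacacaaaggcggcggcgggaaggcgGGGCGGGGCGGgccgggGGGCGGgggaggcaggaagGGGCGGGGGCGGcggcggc
Serpinh1 (chr7:99353240-99353489): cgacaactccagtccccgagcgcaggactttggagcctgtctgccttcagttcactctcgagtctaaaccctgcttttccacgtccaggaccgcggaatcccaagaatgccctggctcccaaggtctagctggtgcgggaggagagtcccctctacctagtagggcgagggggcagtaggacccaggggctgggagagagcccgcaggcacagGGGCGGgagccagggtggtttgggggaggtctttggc
Serpine2 holds 6 GC boxes, some of them overlapping, and Serpinh1 1, and 78.8% and 63.6% of these bases are G or C. Neither promoter holds any of the other motifs searched.

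Clade B, the intracellular serpins, was the largest clade by gene number and among the lowest by level: 5 of 26 members could be tested, none was called (0 higher and 0 lower), and the median log2 difference was -0.59. Serpinb6a, which inhibits cathepsin G and trypsin-like proteases, was the highest, at 17.3, 12.03 and 17.6 CPM in libraries 2, 3 and 2600 and 21.3, 22.1 and 27.3 CPM in scrambled 28, 30 and 31. Its groups did not overlap, and the difference of -0.59 ± 0.19 missed the threshold (edgeR adjusted p = 0.0664). It was called lower without library 2 (-0.70, adjusted p = 0.0311), with DESeq2 (-0.59, 0.0383), with upper-quartile factors (-0.69, 0.0366) and with library totals alone (-0.96, 0.00827). Without library 2, with DESeq2 and with library totals alone, 2 clade B members were called lower, beside 12%, 9.27% and 20.5% of all genes. Without library 2600 it was 1 member other than Serpinb6a, beside 6.29% of all genes.

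Serpinb9, the inhibitor of granzyme B, averaged 9.64 CPM over the 6 libraries, with a log2 difference of -0.78 (edgeR adjusted p = 0.163). Serpinb8 averaged 8.28 CPM (-0.32), Serpinb6b 6.82 CPM (-0.76) and Serpinb1a, an inhibitor of neutrophil proteases, 2.71 CPM (0.51), and groups overlapped for all of these. Of the other 21 members of clade B, Serpinb13, Serpinb3a, Serpinb3b, Serpinb3c, Serpinb3d, Serpinb11 and Serpinb6d were listed at 0 in all 6 libraries, where the floor of 3 counts is 0.0347 to 0.0682 CPM. The remaining 14, among them Serpinb2 and Serpinb5 (maspin), had at most 26 counts in a library. Serpinb9c had 0 counts in each library labelled S100a11 shRNA and 10, 3 and 10 in scrambled 28, 30 and 31. Clade I was near the limit too: Serpini1 (neuroserpin) averaged 1.05 CPM (-0.85, adjusted p = 0.0999) and Serpini2 had 4 counts in 1 library.

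Of 15 granule proteases and cathepsins, the targets of clade B serpins among them, 9 could be tested, with a median of -0.18. Of the 9, 0 were called higher and 2 lower, beside 5.82% and 8.28% of all tested genes. The lower ones were Ctss and Ctsk, cathepsins of macrophages and of matrix breakdown, which fell by 1.09 (edgeR adjusted p = 0.0296) and 0.78 (0.0408). Elane, which encodes neutrophil elastase, was at 0.160 to 0.266 CPM over the 6 libraries.

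**Figure D5:**
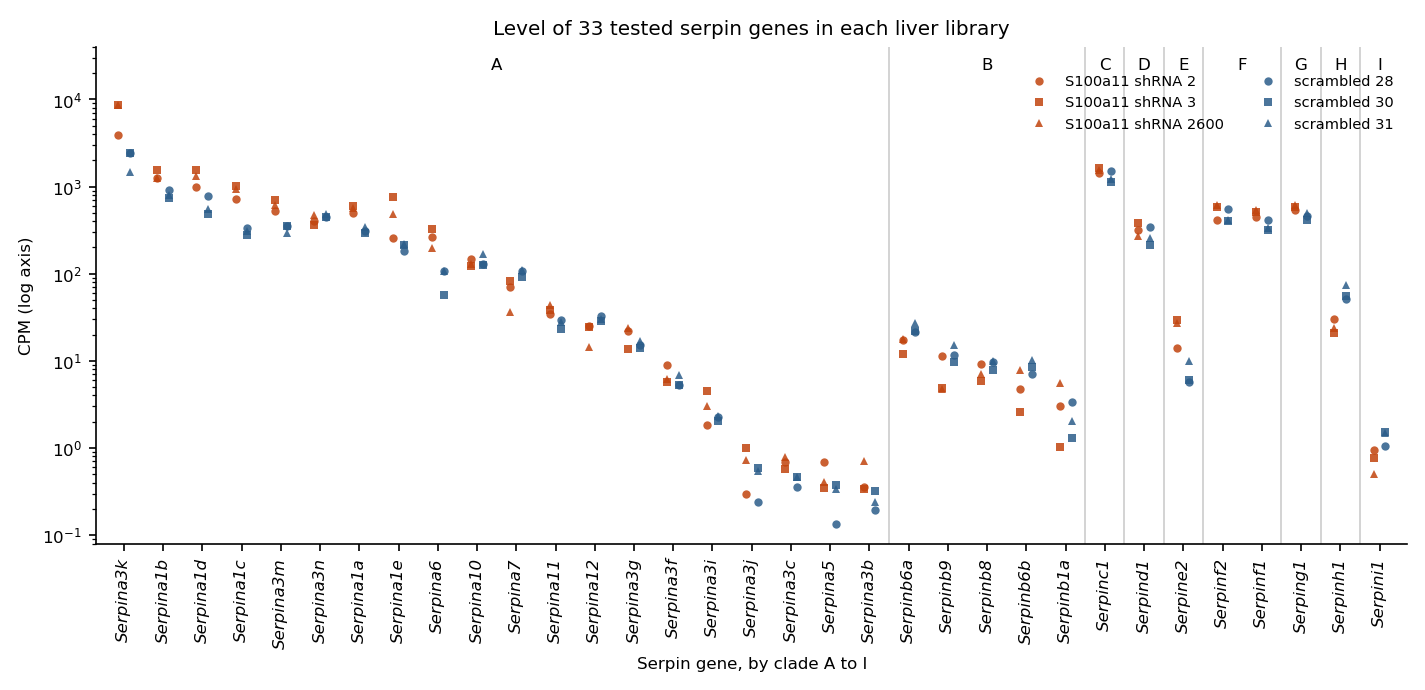
Level of the 33 tested serpins in each library, in CPM on a log axis, by clade A to I, with the libraries labelled S100a11 shRNA to the left and the scrambled ones to the right within each gene. Serpina3k reaches 8745 CPM, while the 5 members of clade B stay between 1.02 and 27.3 CPM.

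Per length, Serpina3k at 2238 CPM per kb was followed by Serpina1d (680), Serpina1b (448), Serpina1c (441), Serpina3m (277), Serpina1a (236), Serping1 (222), Serpina1e (219), Serpinf2 (214), Serpina3n (211), Serpinf1 (181), Serpinc1 (165), Serpind1 (136) and Serpina6 (99.8), as means of 6 libraries. The order of the copies rests on the division of shared reads. From Serpina3k down to Serpinc1, each pair of neighbours in this order differed by less than the larger of their SDs over the 6 libraries of both groups. Clade E, H and B members followed far below, with Serpinh1 at 17.4, Serpinb6a at 3.63 and Serpine2 at 1.85 CPM per kb.

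Genes of 2 programmes of liver expression, the acute phase response and growth hormone action, were compared with the serpins. Of all tested genes 5.82% were called higher and 8.28% lower, and of those averaging 100 CPM or more 21.6% and 2.28%. Of 21 acute phase and IL-6 genes, a group to which Serpina3n belongs, 2 were called higher and 4 lower, with a median log2 difference of 0.03. Saa2 fell by 1.23 (edgeR adjusted p = 0.00351), Lcn2 by 1.75 (0.00449) and Apcs by 0.79 (0.00577), while Saa3 was at 0.03 (0.945). Of 18 genes of growth hormone action and male-biased liver expression, 8 were called higher and 0 lower, with a median of 0.78. Igfals, a carrier of IGF1 made under growth hormone, was at 113, 149 and 114 CPM in libraries 2, 3 and 2600 and at 58.9, 50.3 and 59.9 CPM in scrambled 28, 30 and 31 (1.15 ± 0.16, adjusted p = 0.00486). Slco1a1, a male-biased transporter, was at 38.0, 225 and 176 CPM and at 4.52, 8.39 and 10.7 CPM (4.22 ± 0.62, 0.00585), and Elovl3 rose by 3.62 (0.00668). In Slco1a1, as in Serpina3k, library 2 was the lowest of its group and above every scrambled library. Library 2 was the lowest of its group in 9 of the 10 serpins called higher, so this order is not particular to Serpina3k. Whether either programme has a part in the serpin levels was not tested.

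Levels of cell type markers differed between the groups too. The summed level of 8 hepatocyte markers lay between 40581 and 49930 CPM under the S100a11 label and between 28676 and 35148 CPM under the scrambled one. Of these markers 2 were called higher and 0 lower, with a median log2 difference of 0.48, in the direction of the clade A serpins. That count is near the share among all genes averaging 100 CPM or more, of which 21.6% were called higher and 2.28% lower, with a median of 0.31. Over all tested genes the shares were 5.82% and 8.28%. The 8 cholangiocyte markers summed to 157 to 180 CPM and 511 to 629 CPM, with 7 called lower. The 8 stellate cell and myofibroblast markers summed to 371 to 563 CPM and 674 to 915 CPM, with 4 called lower, among them Col1a1 of the procollagen list, in the direction of Serpinh1. Of 9 macrophage markers 1 was called higher and 4 lower (213 to 386 CPM and 409 to 587 CPM), in the direction of Serpinb6a and Serpinb9. The 5 mesothelial markers summed to 2.21 to 11.5 CPM and 11.7 to 18.9 CPM with none called. No marker in these 5 lists was at 0 in all libraries. Of the T and NK cell markers, which summed to 5.61 to 7.39 CPM and 6.91 to 10.7 CPM, 1 of 8 was called, lower, and Cd3g, Prf1 and Klrb1c were below 1 CPM in every library. The 8 endothelial markers summed to 594 to 879 CPM and 593 to 668 CPM, with 1 called higher and 1 lower and a median of 0.23. Of 6 mast cell markers only 1, Kit, could be tested, and it was called higher. The other 5 (Cma1, Cpa3, Fcer1a, Mcpt4 and Tpsb2) were below 1 CPM in every library. The sums of 21.1 to 24.8 CPM and 10.7 to 11.4 CPM over the 6 were therefore mostly Kit and say little of mast cells. The B and plasma cell markers (13.1 to 16.5 CPM and 27.6 to 59.5 CPM), the neutrophil markers (0.783 to 2.43 CPM and 2.09 to 3.45 CPM) and the pancreatic acinar markers (2.59 to 2.99 CPM and 2.94 to 8.81 CPM) each had 1 gene called lower and 0 higher. The part of these markers in the results on serpins was not tested.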

How the data were processed

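Total RNA of mouse liver was made into 6 stranded libraries after removal of ribosomal RNA, per the labels' protocols. The authors deposited raw read counts per Ensembl gene, with gene lengths in bases. The genome build is mm10, per the submitters' processing notes, and the aligner, the counter and its treatment of reads with several matches are not stated. All 43346 genes entered edgeR 4.0.16 (R 4.3.3), with filterByExpr (minimum count 10, minimum total 15), TMM factors and the quasi-likelihood F test. P-values were adjusted by Benjamini-Hochberg over 19352 tested genes, with a threshold of 0.05. The common dispersion corresponded to a biological coefficient of variation of 0.223. The fit was tested on simulated counts. CPM were computed from TMM-scaled totals, and CPM per kb with the deposited lengths. One gene of the family is not reported here. The 59 serpins described and the lists were chosen with earlier results of these data known. Members called, or with a mean of at least 10 CPM, are given with every library, and the first 3 called genes of a list by p are named, with a few others named after their values were seen. Shared stretches of 50 and 100 bases were counted over GENCODE M21 transcripts. Coding sequences were aligned with MAFFT 7.526. Alternatives were DESeq2 1.42.0, limma 3.58.1 (voom), other scalings and filters, summed copies, another threshold, and leaving out each library. No 2 libraries agreed within sampling noise, as the lowest chi-square per gene of any pair was 48.4, between scrambled 28 and 30. Library 2 was at 193, 223 and 158 with scrambled 28, 30 and 31, and at 235 and 349 with libraries 3 and 2600. Libraries 3 and 2600 were at 147 with each other. By this measure library 2 was nearer to every scrambled library than to those that share its label, and the cause was not tested.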

Additional observations from a re-analysis of the deposited data

How the results depend on the processing

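Of 330 values of single named genes and alternatives, 280 kept their direction and side of the threshold, 35 lost a call in the same direction, 10 gained one and 5 changed sign, none of them called in either setting. The sign changes were Serpinc1 (-0.0902), Serpind1 (-0.0822), Serpinf2 (-0.132) and Serping1 (-0.0177) with library totals alone, and Serpina10, which ranged from -0.209 to 0.0533 with single libraries left out and was above 0 only without scrambled 31. Serpina1c, Serpina6 and Serpinh1 were called in all 15 alternatives. The number of serpins called higher was 10. It was 12 with DESeq2, where 43 serpins were tested and 6.85% of all genes were called higher. It was 5 with library totals alone and 5 with the Serpina1 and Serpina3 copies each summed, where 2 sums stand for 7 calls. When single libraries were left out it ranged from 2 to 11. The number called lower was 1. It was 3 at an adjusted p under 0.1, 3 with DESeq2, 7 with library totals alone and 2 with upper-quartile factors, and ranged from 1 to 4 when single libraries were left out. S100a11 was at -1.90 with library totals alone and -1.89 with limma voom (adjusted p = 0.0424 and 0.0417), and at -2.75 to -1.22 with single libraries left out. The summed Serpina1 copies were at 0.66 with library totals alone and at 0.88 to 1.12 with single libraries left out, and the summed Serpina3 copies at 1.29 to 1.70. Beyond fewer libraries in a fit, the causes of these differences were not tested. The legacy form of the quasi-likelihood test, added after the data were seen, left both counts of serpins at 10 and 1. No paired analysis was possible because the groups share no library numbers. With 3 libraries a group, serpins under about 1 CPM could show only large differences.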

Other observations

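Named pseudogenes of the chromosome 12 cluster lie outside the family as defined here and were singled out after their values were seen. Serpina4-ps1 was at 89.6, 353 and 110.4 CPM in the libraries labelled S100a11 shRNA 2, 3 and 2600 and at 11.7, 10.9 and 3.73 CPM in scrambled 28, 30 and 31. Its groups did not overlap, and the log2 difference was 4.39 ± 0.63 (edgeR adjusted p = 0.00539), larger than that of any serpin member. Serpina3l-ps, which lies within the span of Serpina3m, was at 0.294, 64.9 and 73.5 CPM and at 1.99, 0.363 and 0.127 CPM (5.84 ± 1.56, adjusted p = 0.0393). There library 2, whose S100a11 level goes against its label, was within the scrambled range. Serpina3h, another such entry, was at 1.78 to 1.96 CPM in the means of both groups, with a log2 difference of 0.14 (adjusted p = 0.724).

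The lncRNA gene Gm26917 took 3.99%, 6.44% and 10.9% of the raw counts of libraries 2, 3 and 2600 and 4.08%, 4.42% and 3.16% of those of scrambled 28, 30 and 31, a share larger than that of the 59 serpins together in every library.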
